A study of Mus musculus with 38 samples.

Results

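The regions described here are 6530 sites in the mouse genome where RUNX1 bound early after Notch stimulation, together with the Mediator subunit Med12, and where RUNX1, p300 and Med12 had no peak before stimulation. They were chosen from 38399 Phase 1 RUNX1 peaks by measured peak calls. A peak was kept if it was not annotated as a promoter, shared no base with an LP peak of RUNX1, p300 or Med12, and shared at least 1 bp with a Phase 1 Med12 peak. The members made up 22.4% of the 29155 Phase 1 RUNX1 sites outside promoters. They are called de novo sites with Med12 below, and they were set beside 2310 de novo sites without Med12, 2255 Phase 1-specific sites that already carried an LP p300 or Med12 peak, and 16148 shared sites (RUNX1 in LP and in Phase 1) with Phase 1 Med12.

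All cells were Cas9-LP cells, a line grown from Ebf1-deficient fetal liver progenitors of Rosa26-Cas9 knock-in mice, so control cultures carried the same deletion and transgene. LP cells were kept on OP9 stroma with SCF, Flt3L and IL-7. For Phase 1, Notch signalling was then started by 2 days on OP9-DLL4, a stroma that carries DLL4 as ligand, per the study's methods. Phase 2 is a later stage of that culture. Guide RNAs against Cbfb (sgCbfb), Med12 (sgMed12) or CTCF (sgCTCF, in LP cells), or control guides (sgCont), were delivered by retrovirus as pools. The 38 samples formed 19 groups of 2 replicates, and 17 peak lists of ChIP-seq, each merging 2 replicates, were used. The lists hold no RNA or protein level, so neither the loss of Cbfb or Med12 nor markers of the cell type could be checked, and the lists from guide-treated cells were shorter than the unperturbed Phase 1 lists (1550 sgCont and 2094 sgMed12 RUNX1 peaks against 38399, and 19053 sgCont and 18099 sgCbfb Med12 peaks against 39132). Distances are to the nearest transcription start as HOMER gave it. The study's methods state one approximate read number for all samples, but the files give no read counts, so the depth behind each list is unknown here. The peaks of a list are not replicates of a culture. Intervals are 95% Wilson intervals on shares of sites, and tests are two-sided Fisher's exact tests adjusted over 19 comparisons. They cover counting error only and carry no error between cultures.

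RUNX proteins bind DNA with the non-DNA-binding partner Cbfb and can activate or repress genes, depending on the proteins that join them. Mediator links enhancer-bound factors to RNA polymerase II, with Med12 in its kinase module, and p300 acetylates histones at active enhancers. Notch receptors are cut upon contact with a ligand, and the released intracellular domain, Notch1-IC, joins the DNA-binding protein RBPJ. In the thymus this signal starts the T-lineage program, in which Tcf7 and Gata3 are among the early induced transcription factors and Il2ra (CD25) marks the next stage.

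Sequences of 9 sites are shown for the strings that the comparisons below count. Each is the 200 bp around the RUNX1 peak centre on the forward strand of mm10, 5′ to 3′. Capitals mark matches on either strand to TGTGGTT or TGCGGTT (the RUNX string), TGACTCA or TGAGTCA (AP-1, the letters being reverse complements of each other), GAGGAAGT (PU.1) and GTGGGAA (RBPJ). The highest-scored members within 50 kb of Tcf7, Il2ra, Notch1, Gata3 and Hes1 are shown because these genes lie in the Notch-driven program.
Tcf7, 31.4 kb before the start, chr11:52314265-52314464: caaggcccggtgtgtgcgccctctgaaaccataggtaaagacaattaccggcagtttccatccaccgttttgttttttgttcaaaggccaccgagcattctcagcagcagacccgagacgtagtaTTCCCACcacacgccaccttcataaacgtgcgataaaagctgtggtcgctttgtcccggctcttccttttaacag
Il2ra, 19.5 kb before the start, chr2:11623229-11623428: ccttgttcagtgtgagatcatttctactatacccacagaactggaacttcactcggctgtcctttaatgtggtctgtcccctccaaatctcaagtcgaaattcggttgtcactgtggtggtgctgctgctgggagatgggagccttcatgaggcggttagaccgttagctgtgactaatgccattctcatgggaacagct
Notch1, intron 1, chr2:26502234-26502433: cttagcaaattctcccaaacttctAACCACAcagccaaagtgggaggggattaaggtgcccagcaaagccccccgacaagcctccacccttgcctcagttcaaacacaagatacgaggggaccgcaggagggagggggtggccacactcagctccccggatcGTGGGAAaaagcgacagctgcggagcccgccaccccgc
Gata3 window, intron 4 of Taf3, chr2:9924288-9924487: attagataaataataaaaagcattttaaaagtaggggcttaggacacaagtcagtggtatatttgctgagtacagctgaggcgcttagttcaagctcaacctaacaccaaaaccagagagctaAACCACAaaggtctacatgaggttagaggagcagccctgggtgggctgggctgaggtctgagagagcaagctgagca
Hes1, 8.16 kb before the start, chr16:30057099-30057298: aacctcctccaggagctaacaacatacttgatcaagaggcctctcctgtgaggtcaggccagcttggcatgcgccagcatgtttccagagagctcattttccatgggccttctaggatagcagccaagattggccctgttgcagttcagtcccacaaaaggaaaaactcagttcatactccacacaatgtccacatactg
The Tcf7 site held an RBPJ string near its middle, the Notch1 site held a RUNX and an RBPJ string, the Gata3 window's site held a RUNX string, and the Il2ra and Hes1 sites held none of the 4. The absence of a match says only that these letters are not in the window.

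The next sequences show the highest-scored members with a RUNX string, with an AP-1 string and with both, and the highest-scored de novo site without Med12 that held a RUNX string.
Colq intron 1, RUNX, chr14:31570454-31570653: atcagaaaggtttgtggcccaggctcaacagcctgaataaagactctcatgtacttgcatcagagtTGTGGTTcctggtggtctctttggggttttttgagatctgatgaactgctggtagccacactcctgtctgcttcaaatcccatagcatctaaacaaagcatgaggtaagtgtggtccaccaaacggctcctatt
Cacna1d intron 29, AP-1, chr14:30092492-30092691: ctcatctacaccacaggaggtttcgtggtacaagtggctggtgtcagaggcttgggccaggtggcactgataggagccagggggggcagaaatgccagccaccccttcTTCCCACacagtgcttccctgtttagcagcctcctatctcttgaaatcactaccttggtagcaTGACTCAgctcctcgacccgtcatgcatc
Intergenic, 250 kb after the Rplp1 start, RUNX and AP-1, chr9:61664099-61664298: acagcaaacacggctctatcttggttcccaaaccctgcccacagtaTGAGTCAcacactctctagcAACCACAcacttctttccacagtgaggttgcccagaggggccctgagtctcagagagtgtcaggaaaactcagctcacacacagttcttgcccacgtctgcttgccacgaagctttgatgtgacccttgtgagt
Tubb5 intron 1, no Med12, chr17:35837039-35837238: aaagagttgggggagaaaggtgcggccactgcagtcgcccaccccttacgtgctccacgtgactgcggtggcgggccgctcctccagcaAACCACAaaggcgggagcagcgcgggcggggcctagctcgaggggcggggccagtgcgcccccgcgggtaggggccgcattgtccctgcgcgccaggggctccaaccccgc
In the site with both, the AP-1 string began at base 47 of the window and the RUNX string at base 67. The Cacna1d site held an RBPJ string as well.

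The members were mostly weak RUNX1 peaks far from transcription starts. Their Phase 1 RUNX1 score, a HOMER score that is used here only to rank peaks within a list, had a median of 24.6 and ran from 15, the floor of the list, to 405.6. The lower and upper quartiles were 19.1 and 34.3. Only 98 members scored 100 or more, while the median of the shared sites with Med12 was 55.7. De novo sites without Med12 were weaker still, with a median of 18.5. Since the rule used these peaks, the scores are a description. The nearest transcription start lay at a median of 26.3 kb (quartiles 10.6 and 61.7 kb), against 20.3 kb for de novo sites without Med12 and 20.0 kb for shared sites, and 4982 members (76.3%) lay more than 10 kb away. By annotation, 3152 members (48.3%) were intronic, 3106 (47.6%) intergenic, 68 (1.04%) exonic and 11 (0.168%) in a 5′ UTR. Over all sites outside promoters these shares were 48.4%, 44.7%, 1.95% and 1.14%. Members lay in CpG islands in 27 cases (0.413%, interval 0.284 to 0.601), fewer than the 3.39% (3.13 to 3.68) of shared sites. The share was 1.26% (0.876 to 1.80) in de novo sites without Med12 and 2.48% in all sites outside promoters. An LTR repeat was annotated at 649 members (9.94%), near the 10.3% of all sites outside promoters.

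**Figure D1:**
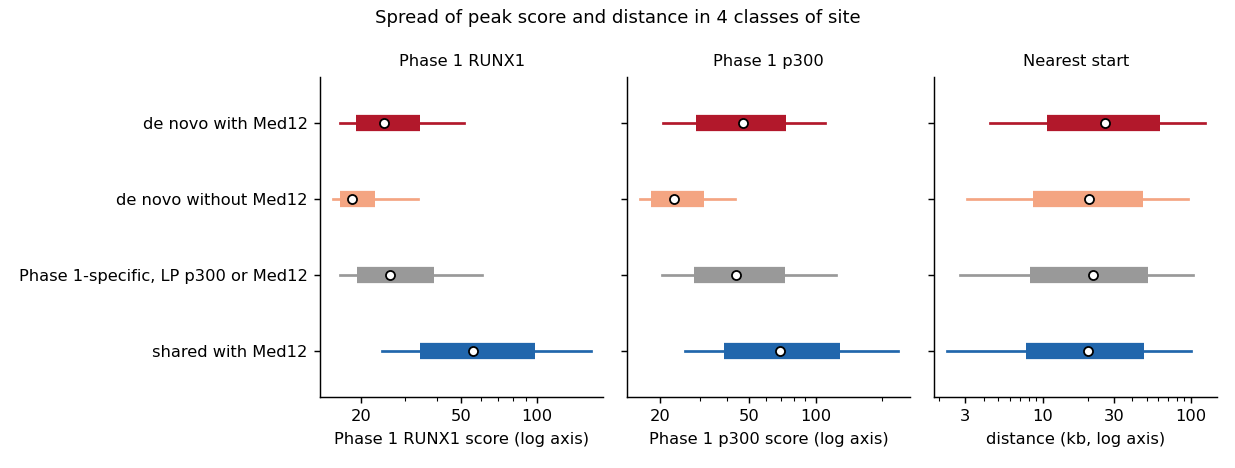
Spread of the Phase 1 RUNX1 score, the Phase 1 p300 score and the distance to the nearest start in 4 classes of Phase 1 RUNX1 site (thick bars, quartiles; thin lines, 10th to 90th percentile; circles, medians; log axes). Members (red) had a median RUNX1 score of 24.6 and a median p300 score of 47.1, above the 18.5 and 23.0 of de novo sites without Med12 and below the 55.7 and 69.0 of shared sites.

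Values just inside and just outside the rule lay close together. The member with the smallest Med12 overlap shared 3 bp, and the nearest excluded site lay 4 bp from a Med12 peak. The median overlap was 306 of the 329 bp of a RUNX1 peak, with 17 members (0.260%) under 100 bp. A member could abut an LP peak (smallest gap 0 bp), while the nearest site left out for an LP peak overlapped it by 2 bp. In all, 190 members (2.91%) had an LP RUNX1, p300 or Med12 peak within 500 bp and 3122 (47.8%) within 10 kb, and the median gap to the nearest such peak was 10.9 kb. A further 270 promoter peaks met every other part of the rule. The separate LP RUNX1 lists of guide-treated cells, which the rule did not use, held a peak at 0 members for sgCont and at 1 member for sgCTCF, but these lists had only 975 and 874 peaks.

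De novo sites with Med12 carried Phase 1 p300 far more often than de novo sites without it. A p300 peak lay at 5891 of 6530 members (90.2%, 89.5 to 90.9) and at 960 of 2310 sites without Med12 (41.6%, 39.6 to 43.6), where 86.2% of all Phase 1 RUNX1 sites outside promoters had one. The odds ratio was 13.0 (11.5 to 14.6), and the adjusted p of the exact test fell below the smallest number that the program can hold. The rule left no LP p300 peak at either class. Phase 1-specific sites with an LP p300 or Med12 peak carried Phase 1 p300 in 88.5% (87.1 to 89.7), close to the share in members. Whether the gap by Med12 is particular to de novo sites was not tested. The share in members ran from 82.2% in the lowest of 5 classes of RUNX1 score to 94.3% in the highest, and in sites without Med12 it lay between 36.1% and 43.3%, so the gap was present in every class. Among sites with p300, the median p300 score was 47.1 in members, the 51.7th percentile of the p300 list, and 23.0, the 20.6th percentile, in sites without Med12. Against shared sites with Med12 the share was lower (95.2%, odds ratio 0.464, adjusted p = 2.44e-41 by the exact test), but pooled over 5 classes of like RUNX1 score the odds ratio was 1.02. The classes differed in direction. In the lowest, 86.8% of members and 82.9% of shared sites had p300. In the next to highest the shares were 92.6% and 97.0%, and in the highest 89.5% and 98.7%. The centres of the RUNX1 and p300 peaks lay a median of 23.0 bp apart in members, and those of RUNX1 and Med12 22.0 bp apart.

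**Figure D2:**
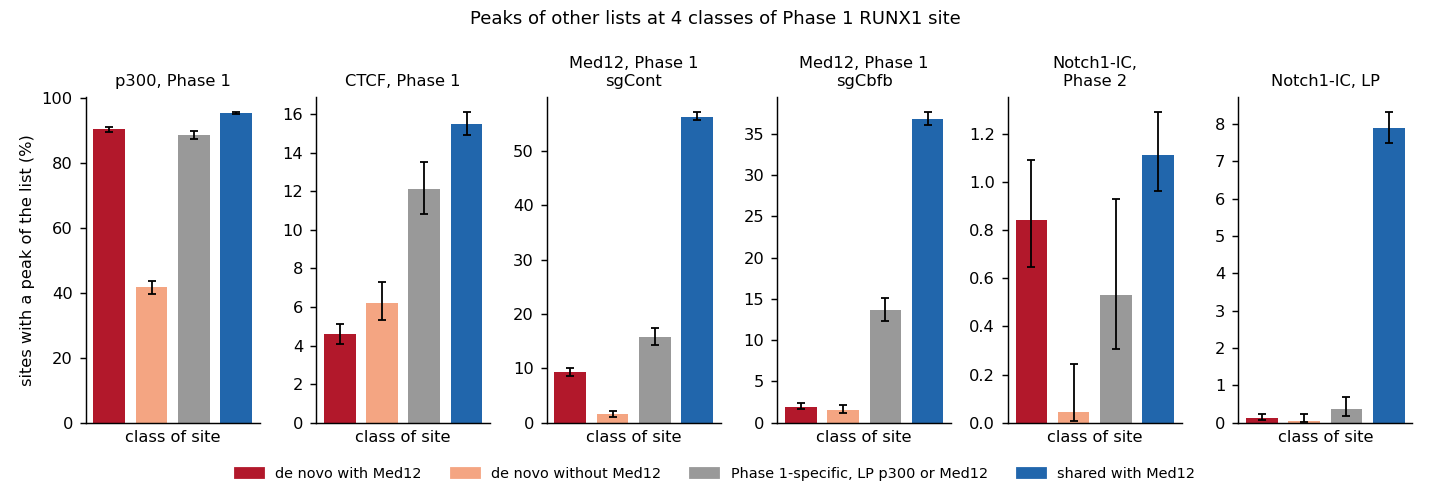
Share of sites (%, bars with 95% Wilson intervals) that overlap a peak of 6 lists, in 4 classes of Phase 1 RUNX1 site; each panel has its own axis from 0. Members (red) reached 90.2% for Phase 1 p300, against 41.6% in de novo sites without Med12, and 1.96% for Med12 in sgCbfb cells, against 36.8% in shared sites.

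CTCF, a zinc finger protein that organizes chromatin loops, was rare at members. A Phase 1 CTCF peak overlapped 299 of them (4.58%, 4.10 to 5.11), compared with 6.23% (5.32 to 7.29) of de novo sites without Med12, 15.5% (14.9 to 16.1) of shared sites and 12.3% of all sites outside promoters. Both differences passed the exact test (odds ratios 0.722, adjusted p = 0.00355, and 0.262, adjusted p = 5.73e-132). Of the 299, 130 (43.5%, 38.0 to 49.1) had no LP CTCF peak, a larger part than the 19.6% (18.1 to 21.2) in shared sites and 21.5% (15.6 to 28.9) in sites without Med12. These shares were not tested. As a share of all members these gained CTCF sites came to 1.99%. The share was 1.34% in de novo sites without Med12, 3.03% in shared sites and 2.45% in all sites outside promoters. A long CTCF consensus string was found in 0 of the 130 members with gained CTCF and in 6 of the 169 with CTCF in both stages (3.55%). Over all sites outside promoters it was in 1 of 715 (0.140%) and in 210 of 2878 (7.30%) such sites. The highest-scored gained CTCF sites lay 22.5 kb before Tcf7 (RUNX1 score 152.1), in intron 3 of Dtx1, a ubiquitin ligase of the Notch pathway (137.9), in an intron of Mast2 (135.7), 7.93 kb before Nrarp (115.8) and 19.1 kb before Crygn (113.4); they were picked as the 5 with the highest RUNX1 scores after the class had been counted.

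Notch1-IC was found at 59 members, at 15 in the Phase 1 list and at 55 in the Phase 2 list, with 11 in both. This was 0.904% of members, against 1 of 2310 de novo sites without Med12 (0.0433%, 0.00764 to 0.245) and 0.954% of all sites outside promoters. The odds ratio was 21.1, with an exact interval from 3.63 to 846, and the adjusted p of the exact test was 6.8e-07. The Notch1-IC lists used here were short (152 peaks in Phase 1, 352 in Phase 2) and hold fewer peaks than the study describes for these stages, so every Notch1-IC share and odds ratio here is for the lists as used. Every one of the 59 carried Phase 1 p300, as did 276 of all 278 sites with Notch1-IC (99.3%). At 2 of the 59, before Mir142 and in intron 1 of Ptp4a3, the LP list held a Notch1-IC peak as well. Against shared sites with Med12, where 203 of 16148 (1.26%) had Notch1-IC, members were lower (odds ratio 0.716, 0.535 to 0.958, adjusted p = 0.0298 by the exact test). The direction turned when sites of like RUNX1 score were compared, with a Mantel-Haenszel odds ratio of 4.88 (adjusted p = 1.61e-19, by chi-square and not by an exact test). In the highest of 5 classes of score, 17 of 124 members (13.7%) and 173 of 4411 shared sites (3.92%) had Notch1-IC, and in the next class 17 of 475 (3.58%) and 18 of 4061 (0.443%). The lowest 2 classes of score held 3057 and 1876 of the members, and at most 0.426% of members or shared sites there had Notch1-IC.

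Among the members with Notch1-IC, 21 of 59 (35.6%, 24.6 to 48.3) held an RBPJ string, compared with 7.98% of all members, 22 (37.3%) held a RUNX string and 1 (1.69%) an AP-1 string. Over all 278 sites outside promoters with Notch1-IC these shares were 23.0% (18.5 to 28.3), 34.9% and 4.68%. The differences were not tested. The 5 highest-scored Phase 1 Notch1-IC peaks at members were in intron 3 of Dtx1 (Notch1-IC score 56.1, RUNX1 score 137.9), in intron 9 of Necab1 (36.5 and 201.7), in intron 1 of Txndc11 (26.3 and 37.3), at an intergenic site on chromosome 15 at 63255744-63256072 (25.7 and 69.0) and at the Il2ra site shown above (24.4 and 206.9). All 5 also had a Phase 2 Notch1-IC peak. The Dtx1, Necab1 and Txndc11 sites held an RBPJ string, and the other two did not. A lower member of that list lay in intron 1 of Notch1 itself (20.5), and a site before Nrarp, a feedback inhibitor of Notch signalling, had a score of 17.1. Both held an RBPJ string.

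The Med12 peaks that members had in control cells were found again in sgCbfb cells far less often than those of shared sites. In sgCont cells Med12 peaks covered 607 members (9.30%, 8.62 to 10.0), 35 de novo sites without Med12 in the unperturbed list (1.52%; odds ratio 6.66, 4.72 to 9.40, adjusted p = 1.25e-44 by the exact test), 9094 shared sites with Med12 (56.3%) and 35.3% of all sites outside promoters. The rule split members from de novo sites without Med12 by a Phase 1 Med12 peak. Their difference in another Phase 1 Med12 list thus shows only how far the lists agree. Matched on RUNX1 score, the odds ratio against de novo sites without Med12 was 3.10, and with a minimum score of 20 it was 9.09. In the middle of 5 classes of score the shares were 1.68% and 1.76%, and in the highest 30.8% and 7.69%. The Med12 list of sgCbfb cells, of similar length, kept 44 of the 607 members (7.25%, 5.44 to 9.59). It kept 4768 of the 9094 shared sites (52.4%, 51.4 to 53.5) and 49.1% of all sgCont sites outside promoters. The odds ratio was 0.0709 (0.0520 to 0.0966, adjusted p = 1.2e-119 by the exact test). The rule allowed no LP Med12 peak at members, whereas 88.7% (88.2 to 89.2) of shared sites had one. This comparison is thus also one of sites without and with Med12 before stimulation. Whether a difference remains among sites alike in LP Med12 was not tested. Phase 1-specific sites with an LP p300 or Med12 peak stood between the classes, with 117 of 356 kept (32.9%, 28.2 to 37.9), and de novo sites called without Med12 in the unperturbed list kept 9 of 35 (25.7%, 14.2 to 42.1). Members had lower sgCont Med12 scores (median 20.3, against 28.8 in shared sites). Within 5 classes of like sgCont score, a comparison added after the counts were seen, the odds ratio was 0.0968 (adjusted p = 7.21e-72, likewise not exact). In the highest of these classes, 3 of 35 members (8.57%) and 1460 of 1905 shared sites (76.6%) were kept. Conversely, 84 of the 128 members with a Med12 peak in sgCbfb cells had none in sgCont cells (44 of 128 in common, 34.4%, 26.7 to 43.0). The share in common was 117 of 308 (38.0%, 32.7 to 43.5) in Phase 1-specific sites with an LP p300 or Med12 peak. It was 9 of 36 in de novo sites without Med12, 80.2% in shared sites and 75.2% in all sites outside promoters. A low share was thus not particular to members, and these shares were not tested.

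**Figure D3:**
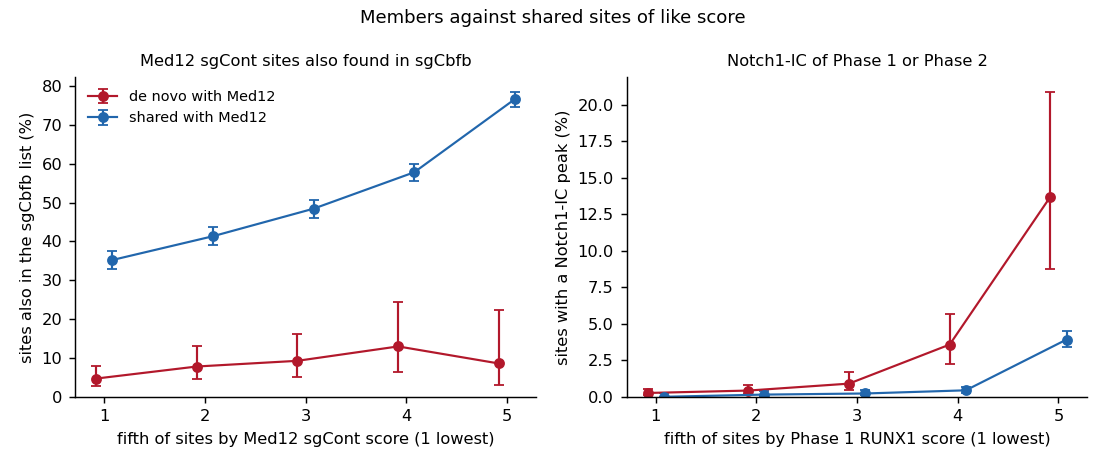
Left, share of sites with Med12 in sgCont cells that also had Med12 in sgCbfb cells (%), in 5 classes of the sgCont Med12 score. Right, share of sites with Notch1-IC in Phase 1 or Phase 2 (%), in 5 classes of the Phase 1 RUNX1 score. Points carry 95% Wilson intervals; members (red) stayed between 4.69% and 13.0% on the left while shared sites with Med12 (blue) ran from 35.2% to 76.6%, and on the right members in the highest class reached 13.7% against 3.92%.

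All but 1 of the 10 highest-scored members had Med12 in sgCont cells, and none of the 10 had it in sgCbfb cells. Members that kept it were led by an intron of Flt3, a cytokine receptor of early progenitors (RUNX1 score 133.2, sgCont Med12 score 45.8), a non-coding exon of Chkb (129.9 and 70.7), an intron of Fam13b (121.1 and 37.8), the site before Nrarp (115.8 and 45.1) and an intron of Chst11 (114.5 and 64.2). The Chkb and Fam13b sites lay within 1 kb of a start and had no p300 peak. They were picked by RUNX1 score after the counts were known. Of the 35 members with Notch1-IC and sgCont Med12, 3 (8.57%, 2.96 to 22.4) kept Med12 in sgCbfb cells, against 97 of 195 (49.7%, 42.8 to 56.7) shared sites. Phase 1-specific sites with an LP p300 or Med12 peak kept it at 1 of 12 (8.33%, 1.49 to 35.4). Over all sites outside promoters it was 101 of 243 (41.6%). RUNX strings were present in 36.9% (33.2 to 40.8) of the 607 members with sgCont Med12, against 31.1% of all sgCont Med12 sites outside promoters. AP-1 strings were present in 9.56% (7.46 to 12.2) of the 607, against 8.75% of all such sites and 18.3% of all members. These differences were not tested.

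The reverse question, RUNX1 binding with less Med12, rested on few sites. RUNX1 peaks of sgCont Phase 1 cells covered 36 members (0.551%), 7 de novo sites without Med12 (0.303%; odds ratio 1.82, exact interval 0.799 to 4.86, adjusted p = 0.174 by the exact test) and 4.63% of all sites outside promoters. Of the 36, 19 (52.8%, 37.0 to 68.0) were also in the sgMed12 list, against 924 of 1279 shared sites (72.2%, 69.7 to 74.6) and 71.1% overall. The exact test gave an odds ratio of 0.429 (0.221 to 0.836, adjusted p = 0.0194). It was 1.03 within classes of like Phase 1 RUNX1 score and 0.411 within classes of like sgCont RUNX1 score (adjusted p = 0.0337, not exact), so the result depended on which score was matched. Another 23 members had RUNX1 in sgMed12 and not in sgCont cells, for 42 in all. These 42 were 0.643% of members, against 5.68% of all sites outside promoters. Of them 45.2% were also in the sgCont list, against 58.0% over all sites outside promoters. Med12 of sgCont cells covered 55 of the 59 members with RUNX1 in either guide list (93.2%), against 98.0% over all sites outside promoters.

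AP-1 strings were more frequent in members than in de novo sites without Med12 and in shared sites. Phase 1-specific sites with an LP p300 or Med12 peak, which were not tested, stood between at 12.9% (11.6 to 14.4). An AP-1 string lay within 100 bp of the centre in 1193 of 6529 members (18.3%, 17.4 to 19.2), in 8.01% (6.97 to 9.19) of de novo sites without Med12, in 8.26% (7.85 to 8.70) of shared sites and in 10.6% of all sites outside promoters. The odds ratios were 2.57 (2.18 to 3.02, adjusted p = 1.47e-34) and 2.48 (2.28 to 2.70, adjusted p = 1.01e-95) by the exact test. In windows 2 kb to either side of the members the share was 3.76%. It lay between 16.0% and 20.1% in the 5 classes of RUNX1 score in members and between 6.30% and 9.01% in sites without Med12. Set beside shared sites in classes of like score, the share in members was 19.2%, 18.7%, 18.0%, 13.9% and 7.32% from the lowest class to the highest, and that in shared sites lay between 6.83% and 9.05%. In the highest class 9 of 123 members (7.32%) and 399 of 4411 shared sites (9.05%) held the string, so the strongest members were not above the shared sites. Among members with Med12 in sgCont cells, 9.56% (7.46 to 12.2) held it, near the 8.75% of all sgCont Med12 sites outside promoters. RUNX strings were found in 31.4% (30.3 to 32.6) of members, 31.8% of shared sites (odds ratio 0.980, 0.922 to 1.04, adjusted p = 0.539 by the exact test) and 31.5% of all sites outside promoters. They were rarer than in de novo sites without Med12 (34.7%, 32.8 to 36.7; odds ratio 0.861, 0.778 to 0.951, adjusted p = 0.00544 by the exact test). In members the share rose with the RUNX1 score, from 23.1% in the lowest class to 38.8% in the highest, whereas in sites without Med12 it was 34.1% and 31.9%. Among sites of like RUNX1 score, members exceeded shared sites in RUNX strings (Mantel-Haenszel odds ratio 1.43, adjusted p = 9.9e-21, likewise not exact). AP-1 strings were less common in members with a RUNX string (228 of 2051, 11.1%, 9.83 to 12.6) than in members without one (965 of 4479, 21.5%, 20.4 to 22.8), a gap that was smaller in shared sites (7.28% and 8.72%). These co-occurrences were not tested. Members with an AP-1 string had Phase 1 p300 in 96.4% (95.2 to 97.3) of cases and those without in 88.8% (88.0 to 89.6). Over all sites outside promoters these shares were 93.0% and 85.4%, and in de novo sites without Med12 56.8% and 40.2%. The gap was thus not particular to members.

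PU.1, an ETS factor of progenitor and myeloid cells, had its string in 6.22% (5.66 to 6.83) of members, in 12.8% (12.3 to 13.3) of shared sites and in 10.4% of all sites outside promoters. The difference from shared sites passed the exact test (odds ratio 0.451, adjusted p = 4.53e-51). That from de novo sites without Med12 (7.45%) did not (odds ratio 0.824, 0.685 to 0.991, adjusted p = 0.0529 by the exact test). RBPJ strings were found in 7.98% (7.35 to 8.66) of members, 5.09% (4.76 to 5.44) of shared sites (odds ratio 1.62, 1.44 to 1.81, adjusted p = 8.12e-16 by the exact test), 6.97% of de novo sites without Med12 (odds ratio 1.16, 0.963 to 1.39, adjusted p = 0.138 by the exact test) and 5.77% of all sites outside promoters. The flanks of members held 3.77%. Strings of different kinds among these 4 shared bases in only 21 members.

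**Figure D4:**
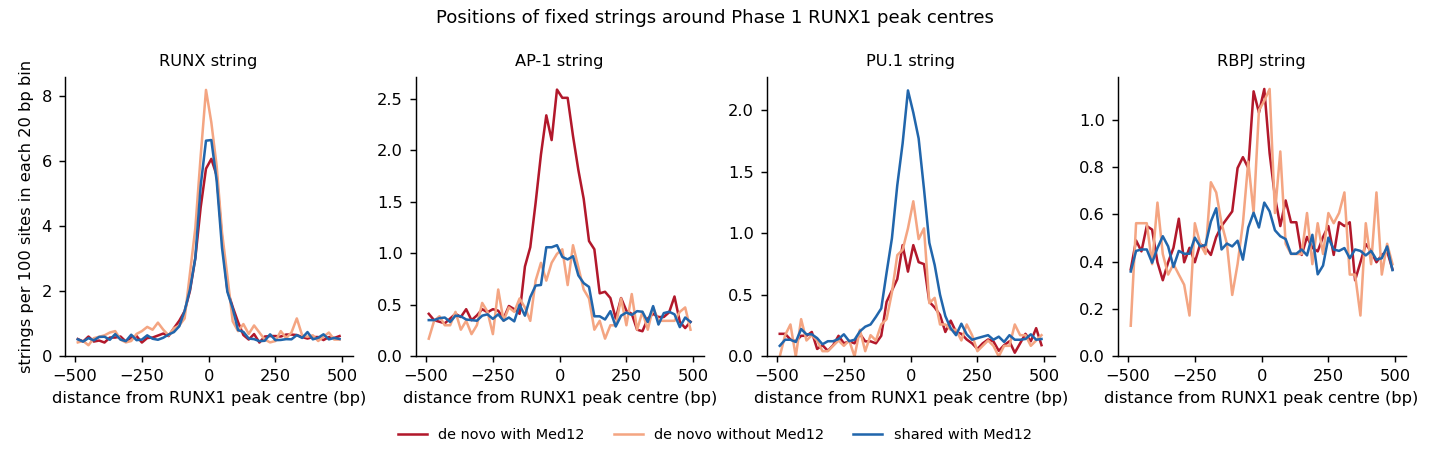
Number of strings per 100 sites in 20 bp bins within 500 bp of the Phase 1 RUNX1 peak centre, for members (red), de novo sites without Med12 (orange) and shared sites with Med12 (blue). At the bin just before the centre, AP-1 strings reached 2.59 per 100 members against 1.08 in shared sites, and PU.1 strings 0.689 against 2.16.

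Other strings were counted without a test. The GATA string, AGATAA, was in 15.3% (14.5 to 16.2) of members, 7.67% (6.65 to 8.82) of de novo sites without Med12, 8.31% (7.89 to 8.74) of shared sites and 9.78% of all, with 11.3% in the members' flanks. CTTTGAT (TCF/LEF) was in 4.32% (3.85 to 4.84) of members, 3.72% (3.03 to 4.58) of de novo sites without Med12, 2.14% (1.93 to 2.37) of shared sites and 2.76% of all, with 3.09% in the flanks. CAGCTG, an E-box, ran the other way against shared sites, with 15.5% (14.6 to 16.4) of members, 22.9% (22.3 to 23.6) of shared sites and 20.2% of all, but with 13.1% (11.8 to 14.5) of de novo sites without Med12. CCGGAAGT (ETS) was in 0.184% and 0.942% of members and shared sites, and TTCCNGGAA (STAT) in 1.06% of members and 1.38% of all. None of the RUNX, AP-1, PU.1 and RBPJ strings was present in 2985 members (45.7%), against 49.9% of all sites outside promoters. The median GC content of the 200 bp was 48.0% in members and 50.5% in shared sites.

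The 10 highest-scored members were of several kinds. The strongest (RUNX1 score 405.6, Med12 351, p300 461) lay 5.07 kb before Mir142, a microRNA gene of blood cells, at chr11:87751631-87751959. It had a Notch1-IC peak in LP and in Phase 2 and RUNX1 in both guide lists, and it was the only one of the 10 with no sgCont Med12 peak. Next came an intergenic site 117 kb before Gse1 (286.1), then a site in an LSU-rRNA repeat 91.6 kb after the Axin2 start (275.6). The repeat site had no p300 peak, and its Med12 score in sgCont cells, 555, was the highest among members. Reads of such multi-copy sequence cannot be assigned to 1 copy, and 2 members in all overlapped an rRNA repeat. An intron 1 site of Colq (258.3) and an intron 9 site of Necab1 (201.7) carried Phase 1 Notch1-IC. The Tcf7 site shown above (252.5, Med12 241, p300 481) overlapped CTCF in both stages and Notch1-IC in Phase 2. An intron 2 site of Inpp5d, which encodes the inositol phosphatase SHIP1 (214.4), held RUNX and TCF/LEF strings and Notch1-IC in Phase 2. The Il2ra site scored 206.9 for RUNX1, 291 for Med12 and 565 for p300, with Notch1-IC in both phases. A site in a LINE repeat 15.1 kb after the start of Sik1, a salt-inducible kinase (196.5), and one in intron 1 of Eif5a (180.3), a translation factor, completed the set. RUNX1 of sgCont cells was found at 8 of the 10, and RUNX1 of sgMed12 cells at 7.

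Members near genes of the T-lineage and Notch programs were few but included several strong sites. Windows of 50 kb around 16 genes held 22 members among 122 sites outside promoters (18.0%, against 22.4% over all such sites), in 12 of the windows, and the windows of Lef1, Il7r, Runx1 and Myb held none. The Il2ra window held 3, with RUNX1 scores of 206.9 and 43.6 at 19.5 kb and 13.0 kb before the start and of 20.0 in intron 1. The first and the last had Med12 in sgCont cells, and none of the 3 had it in sgCbfb cells. Dtx1 had 3 members, including 2 in intron 3 that had Notch1-IC in both phases. The Tcf7 window held 2, at 31.4 kb and 22.5 kb before the start (scores 252.5 and 152.1), each with Med12 in sgCont and not in sgCbfb cells. Nrarp had 2, and the stronger kept Med12 in sgCbfb cells. At Cd3e, a chain of the T cell receptor complex, a member in an intron 0.381 kb after the start and another 1.94 kb before it each had Phase 2 Notch1-IC. The single members in the windows of Hes1 (17.8), Bcl11b, Kit and Spi1 and in the 50 kb window of Gata3 (26.9) had no Notch1-IC and no Med12 in sgCont cells, and Notch3 had 2 such members without p300.

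Members were gathered far from Gata3 as well. By nearest start, 9 members fell to Gata3, of 17 sites outside promoters, and the LP RUNX1 list held 8 sites there. The 9 lay in 2 groups, 3 at 189 to 197 kb and 6 at 297 to 320 kb after the start that HOMER used. The 6 formed the largest run of members with gaps of at most 12.5 kb, chr2:9558576-9582202, with RUNX1 scores from 16.7 to 72.3. Of these 6, 5 had p300, 5 a RUNX string, 2 Med12 in sgCont cells and 0 Med12 in sgCbfb cells. Just before this run, 2 other Phase 1 RUNX1 peaks at 282 and 296 kb after the GENCODE start, with scores of 146.8 and 368.2, were not members, and the LP lists held RUNX1 and p300 peaks at both.

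**Figure D5:**
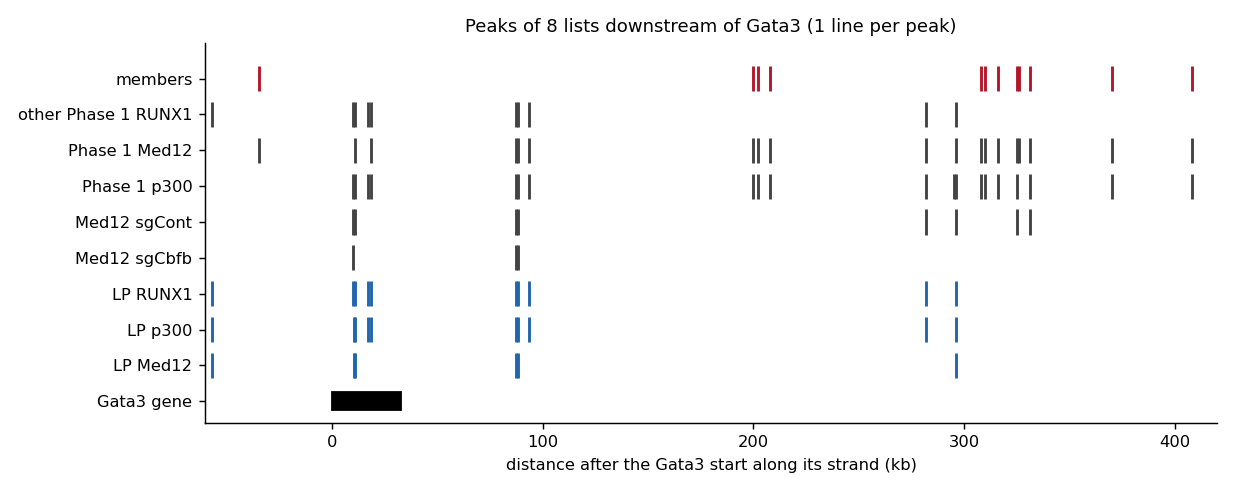
Peaks of 8 lists around Gata3, 1 line per peak, by distance after the GENCODE M21 start along the gene's strand (kb); the black box is the gene. Members (red) lay at 200 to 208 kb and at 308 to 331 kb, where the LP lists (blue) and the sgCbfb Med12 list had no peak; 2 further members lay at 370 and 408 kb, and 1 lay before the start.

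Runs were otherwise rare. In all, 5104 members (78.2%) had no other member within 12.5 kb, and 86 runs held 3 or more. Another Phase 1 RUNX1 peak of any class lay within 10 kb of 3492 members (53.5%, 52.3 to 54.7), of 61.3% (59.3 to 63.3) of de novo sites without Med12 (odds ratio 0.724, adjusted p = 1.05e-10 by the exact test), and of 60.9% of all sites outside promoters.

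A start with a gene symbol was nearest to 6522 members, and these fell to 4360 genes, of which 3028 had 1 member. The gene with the most was Tns3, which encodes the adhesion protein tensin 3, with 13 members of its 28 sites (scores 15.1 to 84.4). Angpt1, a ligand of the Tie2 receptor, had 9, all of its 9 sites, 91.5 to 239 kb from its start, and no LP RUNX1 site outside promoters. Ppp3ca, the catalytic subunit of the phosphatase calcineurin, had 9 of 14, and Nfatc2, a transcription factor that calcineurin activates, had 9 of 22, with scores of 15.8 to 71.1 and 16.0 to 47.2. Maf, a bZIP factor, Hdac4, a histone deacetylase, Vgll4, a cofactor of TEAD proteins, Arhgef10l and Aopep had 8 each. Counts by nearest start were not scaled to the length of genome closest to each gene.

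Counted by nearest gene over fixed lists, members lay at 14 of 17 Notch pathway and target genes, with 35 sites (0.536% of members, against 0.298% of all sites outside promoters, 0.476% of de novo sites without Med12 and 0.204% of shared sites). Besides Gata3, Rbpj had 4, Il2ra, Dtx1 and Maml2 3 each, and Hey1, Nrarp, Hes1 and Tcf7 2 each. T-lineage transcription factors had 34 (0.521%, against 0.511%), with 5 each at Lef1 and Tox and 3 at Ikzf1. Genes of the T cell receptor complex and its signalling had 14 (0.214%, against 0.292%), led by Prkcq with 3. Cytokine and chemokine receptors and their feedback inhibitors had 19 (0.291%, against 0.436%), among them Socs1 with 4 and Cxcr4 with 3. Stem, progenitor and myeloid genes had 17 (0.260%, against 0.340%), with 5 at Mef2c and 3 each at Kit and Erg. B-lineage genes had 5 (0.0766%, against 0.0857%), AP-1 family and immediate early genes 10 (0.153%, against 0.298%), and innate lymphoid and NK genes 9 (0.138%, against 0.0857%), of which 4 were at Zbtb16, the gene of the factor PLZF. Some genes are on more than 1 list, and no test was run on these counts.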

How the data were processed

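ChIP-seq of RUNX1, Med12, p300, CTCF and Notch1-IC was represented by 17 deposited peak lists on mm10, each with a HOMER score per peak. Per the submitters' processing notes and the study's methods, the authors demultiplexed with bcl2fastq (1.8.4 in the notes, a later version in the methods), aligned reads with Bowtie 1.1.1, called peaks with HOMER and kept those that 2 replicates shared by IDR with a score of at least 15. The HOMER version is not given in the sources used here. The 4 input samples were not analysed here. Per-replicate values and read counts were not used here, so the depth behind each list is unknown and no spread between cultures enters any test.

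Overlap meant 1 bp or more. Classes, strings and distances were computed with pandas 2.3.3 and pysam 0.24.0, Fisher's exact tests with scipy 1.17.1, and Mantel-Haenszel odds ratios over 5 classes of score with statsmodels 0.14.6. P-values were adjusted by Benjamini-Hochberg over 19 tests with a threshold of 0.05. The scripts were tested on simulated data. The members and gene lists were chosen with earlier results of these data known. Named sites were the 10 highest-scored members, the highest-scored member per gene window, the 5 highest-scored Phase 1 Notch1-IC peaks at members, the 10 genes with most members and 9 sequences. Sites picked otherwise are named as such. Alternatives were a 50% overlap, a minimum score of 20, no start within 2 kb, no LP peak within 500 bp, sites with LP RUNX1 peaks of guide-treated cells left out, 1 site per 10 kb, score matching and a 100 bp window. After seeing the data, matching on the sgCont scores and counting only p300 or CTCF peaks with no LP peak were added.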

Additional observations from a re-analysis of the deposited data

Results flagged for a closer look

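The share of sgCont Med12 sites found again in sgCbfb cells differed between the classes by the test of the difference itself, with an odds ratio of 0.0709 for members against shared sites with Med12 (44 of 607 against 4768 of 9094). It was 0.0597 within classes of like RUNX1 score and 0.0968 within classes of like sgCont Med12 score. The rule allowed no LP Med12 peak at members, while 88.7% of shared sites had one, and no comparison matched sites on this.

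RUNX1 sites of sgCont cells were found again in sgMed12 cells less often among members than among shared sites, with an odds ratio of 0.429 (19 of 36 against 924 of 1279). It was 1.03 within classes of like Phase 1 RUNX1 score and 0.411 within classes of like sgCont RUNX1 score, with an adjusted Mantel-Haenszel p of 0.0337.

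The LP Notch1-IC list, which entered neither the rule nor a comparison, held 1585 peaks, more than the 152 of Phase 1 and the 352 of Phase 2. LP cells were grown without DLL4. It covered 8 members (0.123%, 0.0621 to 0.242), against 7.90% of shared sites and 4.47% of all sites outside promoters. The 8 included the top-ranked members before Mir142 (RUNX1 score 405.6) and before Gse1 (286.1), a site 19.0 kb before A330009N23Rik (106.3), intron 1 of Arhgap17 (99.7) and intron 1 of Ptp4a3 (71.7). The Mir142 and Ptp4a3 sites also had Phase 2 Notch1-IC, and the Ptp4a3 site had Med12 in sgCont and in sgCbfb cells. What the LP Notch1-IC peaks represent was not tested, and both sites count among the 59 members with Notch1-IC.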

How the results depend on the processing

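Of 151 alternative values for the 19 tests and the number of members, 136 kept their direction and their side of the threshold. The odds ratios for p300, AP-1 strings and sgCont Med12 (with against without Med12) and for Med12 kept in sgCbfb cells kept their direction and call under each alternative tried, though that for sgCont Med12 (6.66) was 3.10 matched on RUNX1 score. The value for sgCont Med12 measures only the agreement of Med12 lists, since the rule used Med12. With a minimum score of 20 the odds ratio for CTCF with against without Med12 was 0.840, no longer past the threshold, and against shared sites it turned to 1.02 for Notch1-IC and to 1.11 for RUNX strings. With no start within 2 kb it was 2.93 for sgCont RUNX1 and 0.814 for PU.1 strings (with against without Med12), and 0.926 for RUNX strings against shared sites, each now past the threshold, and 0.496 for RUNX1 kept in sgMed12 cells, now short of it. In the 100 bp window PU.1 strings (0.782) and RUNX strings against shared sites (0.923) passed it. Matching on RUNX1 score turned sgCont RUNX1 with against without Med12 (0.696) and, against shared sites, RUNX1 kept in sgMed12 cells (1.03), p300 (1.02), Notch1-IC (4.88) and RUNX strings (1.43). For p300 the classes of score differed in direction. Counting only CTCF peaks gained since LP, chosen after seeing the data, turned the comparison with sites without Med12 to 1.49 (adjusted p = 0.0550 by Fisher's exact test). Against shared sites that count kept its direction, with an odds ratio of 0.649 (adjusted p = 1.4e-05 by Fisher's exact test). Apart from the fewer sites that a stricter setting leaves, the cause was not tested. With a 50% overlap no odds ratio could be given for Notch1-IC with against without Med12, since no site without Med12 had it. The number of members ran from 4862 to 6561. No paired analysis was possible because each list merges its 2 replicates, and for the same reason no replicate could be left out. The depth behind each list is unknown, so a missing peak, above all in the short guide and Notch1-IC lists, does not show that binding was absent.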

Other observations

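The share of Phase 1 RUNX1 sites outside promoters that were members ran from 18.6% on chromosome 7 to 29.1% on chromosome 6. LINE repeats were annotated at 5.30% (4.78 to 5.87) of members, 4.89% (4.08 to 5.85) of de novo sites without Med12 and 3.38% (3.11 to 3.66) of shared sites with Med12. Simple repeats were annotated at 0.505% (0.360 to 0.709), 2.73% (2.14 to 3.47) and 0.588% (0.482 to 0.719) of these classes. More than 1 RUNX string was held by 3.55% (3.13 to 4.03) of members and 5.54% (4.68 to 6.55) of de novo sites without Med12. LP CTCF peaks that were absent in Phase 1 lay at 3 members (0.0459%) and at 5 de novo sites without Med12 (0.216%). They lay at 500 shared sites (3.10%) and at 1.96% of all sites outside promoters. After the Gata3 region, the largest runs held 5 members each, 1 beside 2410137M14Rik on chromosome 17 and 1 at Slc44a3 on chromosome 3. Both had p300 at all 5 members and no other Phase 1 RUNX1 peak within them. None of these values was tested.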
